A study of Mus musculus with 4 samples.

Results

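The comparison described here is the B16 pair of a mouse blood RNA-seq series: 1 library of multimer-binding cells, called CTRL, against 1 library labelled residual. These are 2 of the 4 samples of the series, taken by their labels and by the columns that carry their names, and all 53801 genes of the deposited B16 table were read, of which 38516 had reads. B16 is a mouse melanoma line. Both samples were labelled as primary CD8+ lymphocytes of wild-type (WT) mice, purified from peripheral blood mononuclear cells (PBMC) with MHC multimers, and total RNA was amplified with a low-input kit (Takara SMART-Seq v4). CTRL stands for circulating tumor-reactive lymphocytes, the cells that bound the multimers. The treatment label read multimer-binding for both samples, and no label said what the residual population was, so it may or may not hold the CD8+ cells that did not bind. The number of animals, their age and any pooling are not given in the sources used here. With 1 library a side there was no spread between replicates, no test was made, and no difference below has a replicate check.

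CD8+ T cells read peptides held by class I MHC molecules through their receptor, which signals through the CD3 chains, and MHC multimers bind those receptors. Blood also carries B cells, which make immunoglobulin and present peptides on class II MHC, and myeloid cells such as neutrophils and monocytes. Platelets and young red cells have no nucleus, but platelets hold RNA inherited from megakaryocytes and young red cells hold very large amounts of globin mRNA. A difference between libraries of whole populations can come from fewer cells of a type or from less RNA per cell, and these cannot be told apart here.

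CTRL had 37166063 reads in genes and the library labelled residual had 39068457. Levels are given as reads, as the deposited normalized counts, or, where genes are set side by side, as RPKM, which divides reads by exon length in kilobases and by the size of the library. The log2 ratio is CTRL over residual on normalized counts with 1 added, and its interval is the exact 95% counting interval, which covers counting error only, because PCR copies are not independent molecules. A gene with equal reads in both libraries has a log2 ratio of -0.77, since the normalization divided CTRL by 1.31 and the library labelled residual by 0.766. A call of higher or lower needed a log2 ratio of at least 1 in either direction and 10 CPM (reads scaled to library size), which was 372 reads in CTRL or 391 in the residual-labelled library, in at least one of them. Of the 9289 genes at that level, 2485 were called higher in CTRL (26.8%) and 1088 lower (11.7%), and the median log2 ratio was 0.47. A value given alone for a gene, in brackets or otherwise, is its log2 ratio. Counts of list members below are read against those 2 shares, and members under 10 CPM in both libraries are numbered beside each list. Scaling to total reads instead adds 0.84 to the log2 ratio of genes well read in both libraries, and less to that of genes with few or no reads in a library because of the added 1, and moves the share of higher calls to 90.8%, against 69.5% here.

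Rises and falls had different shapes. At 4-fold or more, 409 genes were higher and 551 lower, and at 16-fold or more 18 were higher and 207 lower. At 64-fold or more, 7 genes were higher and 63 lower. The edge of the call cut through a dense range: 363 genes were called higher by less than 0.1 over the limit and 379 missed it by less than 0.1. On the lower side those numbers were 94 and 83. Within the 9289 genes at the level, the share called higher was largest at low mean level. Among the 1858 genes of lowest mean level the median log2 ratio was 0.74 and 38.2% of the genes were higher. Among the 1858 of highest level the median was 0.17, with 17.6% higher and 18.3% lower. The level limit in CPM is a smaller normalized count in CTRL than in the residual-labelled library. Genes of low mean could pass it more easily through CTRL, so the values of the lowest group are partly set by the limit.

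The label of both populations was checked on the coreceptor and receptor genes. Cd8a (chromosome 6, 71373427 to 71379173 on mm10), the alpha chain of CD8, had 15750 reads in CTRL and 65 in the residual-labelled library. Cd8b1, the beta chain, had 33732 reads in CTRL and 61 in the residual-labelled library, a log2 ratio of 8.32 (7.98 to 8.73). Per length, Cd8a stood at 117 RPKM in CTRL and 0.457 in the residual-labelled library, and Cd8b1 at 612 RPKM in CTRL and 1.05 in the residual-labelled library. Cd4, the coreceptor of helper T cells, went the other way, with 493 normalized counts in CTRL and 1067 in the residual-labelled library. Each Cd8a read was accompanied by 0.0409 Cd4 reads in CTRL (0.0377 to 0.0442) and by 12.6 in the residual-labelled library (9.76 to 16.4). The residual population carried the CD8+ label with few CD8 transcripts, and its name stands below as a label only. The CTRL library also held genes of a second lymphocyte type in quantity: Cd79a, a signalling chain of the B-cell receptor, reached 1056 RPKM in CTRL against 88.6 RPKM for Cd3e of the CD3 complex.

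Most genes of the T-cell receptor complex were higher in CTRL by a similar factor. Of 15 such genes, all at the level, 11 were higher and only Cd4 was lower, with a median of 1.51. The 4 CD3 and zeta chain genes, Cd3d, Cd3e, Cd3g and Cd247, ranged from 1.33 to 2.25 with a median of 1.73, and they are used below as the T-cell yardstick. For genes well read in both libraries, the log2 ratio minus that median does not depend on how the libraries are scaled; with few reads, as for Gzmk, the added 1 makes it shift with the scaling. On this measure Cd8b1 stood 6.59 above the CD3 genes and Cd8a 5.40, while Cd4 stood at -2.84. Trac, the constant region of the receptor's alpha chain, lay near the yardstick: it had 12920 normalized counts in CTRL and 3943 in the residual-labelled library (log2 ratio 1.71).

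Of 26 signalling genes downstream of the receptor, all at the level, 13 were higher, 13 were not called and 0 were lower, with a median of 1.02, under that of the CD3 genes. Themis, an adaptor needed for thymocyte maturation, had 2623 reads in CTRL and 256 in the residual-labelled library, a log2 ratio of 2.58. Ubash3a, a phosphatase family member that restrains receptor signalling, had 2386 reads in CTRL and 250 in the residual-labelled library (2.48). Dgka, a diacylglycerol kinase of resting T cells, was at 1.94 and Lck, the kinase bound to the coreceptors, at 1.87. Lat, the membrane adaptor, at 0.88, and Zap70, the kinase recruited by CD3, at 0.84, did not reach the limit.

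Homing receptors of barrier tissues gave some of the widest gaps among T-cell genes. Of 28 memory and homing receptors at the level, out of 33, 16 were higher and 3 lower, with a median of 1.24. Itgae, the integrin chain of CD103 that binds epithelial E-cadherin, had 3717 reads in CTRL and 77 in the residual-labelled library, and stood 3.08 above the CD3 genes. Cxcr6, the receptor for CXCL16, had 1706 reads in CTRL and 56 in the residual-labelled library and stood 2.41 above them. Ccr9, a gut homing receptor, had 1607 reads in CTRL and 86 in the residual-labelled library and stood 1.71 above them. Ccr9 also belongs to the dendritic and plasmacytoid cell list used here. Cxcr5 (2.69) and Ccr6 (2.52), which B cells also express, are among the 16 higher. The part of these other cells in the values was not tested. The skin homing receptor Ccr10 had 358 reads in CTRL and 14 in the residual-labelled library, under the level. Ccr7, a receptor of lymph node entry, lay near the yardstick: it was at 47866 normalized counts in CTRL and 12276 in the residual-labelled library, 0.23 above the CD3 genes. Cd44, the hyaluronan receptor of memory T cells and of myeloid cells, had 3536 normalized counts in CTRL and 19919 in the residual-labelled library, the lowest of the 28 at the level (-2.49).

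Transcription factors lay on either side. Of 25 T-cell factors at the level (4 more were under it), 6 were higher and 2 lower, with a median of 0.51, close to that of all genes. Ets1 (1.91), Tcf7 (1.72) and Lef1 (1.51), factors of naive and long-lived T cells, led the higher group. Other factors known from naive or resting T cells were divided. Klf3 (1.06) and Foxo1 (1.02) were higher. Foxp1 (0.74), Klf2 (0.64), Bach2 (0.51), Satb1 (0.39) and Id3 (-0.59) were not called. Gata3 (0.84), Tbx21 (0.33) and Tox (0.43) did not reach the limit either. Prdm1, a transcriptional repressor that promotes terminal differentiation, and Bhlhe40, a factor of activated cells, were lower, at -2.21 and -2.47. Relative to the CD3 genes they stood at -3.94 and -4.20.

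Cytotoxic genes did not move as a block: of 16 at the level, with 8 under it, 4 were higher and 4 lower, with a median of 0.10. Gzmk, a granzyme typical of less differentiated memory CD8+ cells, had 803 reads in CTRL and 2 in the residual-labelled library. Cst7, an inhibitor of granzyme-processing cathepsins, was at 1.86, and Ctsw, a cathepsin of killer cells, at 1.60. Gzma, a granzyme shared with NK cells, had 5509.6 normalized counts in CTRL and 11030 in the residual-labelled library and stood just past the limit on the lower side. Prf1 (perforin), with 2282 normalized counts in CTRL and 1983 in the residual-labelled library, and Gzmb, with 2547 in CTRL and 1704 in the residual-labelled library, were not called. NK receptor genes lay on the residual side in the same comparison, with 10 of 15 lower, 1 higher, 5 under the level and a median of -1.48, and their part in the granzyme values was not tested. Klrd1, which T cells share, was the higher one at 1.01, whereas Klre1 (-2.03) and Klra9 (-1.93), receptors of NK cells, were lower.

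Checkpoint and costimulatory receptors had 7 of 21 higher and 1 lower, with 6 under the level and a median of 0.70. Cd200 (2.38), the adhesion receptor gene Cd96 (2.27) and Slamf6 (2.23) were higher. Which cell type in CTRL carried these transcripts was not tested. Pdcd1, which encodes PD-1, stayed under the level with 225 reads in CTRL and 4 in the residual-labelled library. Lag3, at 51 reads in CTRL and 14 in the residual-labelled library, and Tigit, at 111 in CTRL and 83 in the residual-labelled library, were also under it, while Havcr2 (TIM-3) at -0.64 and Ctla4 at -0.24 were measured and not called. Entpd1 (CD39) was the one called lower, at -1.69.

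The Gimap GTPases, a chromosome 6 cluster that supports lymphocyte survival, had 5 of 8 members at the level higher and 0 lower, with 1 under it (median 1.64). Gimap1 had 10041 normalized counts in CTRL and 1586 in the residual-labelled library (2.66). Gimap5 (0.62), Gimap6 (0.80) and Gimap9 (0.61) of the same cluster did not reach the limit. In the Schlafen family, 0 of 7 were higher and 3 lower, with 3 under the level and a median of -0.20 that turns positive under total scaling. Slfn4, a gene of myeloid cells, had 594 reads in CTRL and 8490 in the residual-labelled library, and Slfn14, known from red cell and platelet precursors, had 12 in CTRL and 608 in the residual-labelled library.

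Genes of gamma delta and innate-like T cells were few in reads, with 7 of 11 under the level and 3 of the other 4 higher in CTRL. The 3 were Cd163l1, Blk (1.81) and Cd1d1 (1.39). Blk and Cd1d1 also belong to the B-cell lists used here, and the part of B cells in their values was not tested. Cd163l1, the SCART scavenger receptor of gamma delta cells, had 690 reads in CTRL and 36 in the residual-labelled library (3.46). The delta constant region Trdc had 452 reads in CTRL and 218 in the residual-labelled library (0.28). Per read of Trac, CTRL held 0.0268 Trdc reads (0.0243 to 0.0294) and the library labelled residual 0.0722 (0.0626 to 0.0829).

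**Figure D1:**
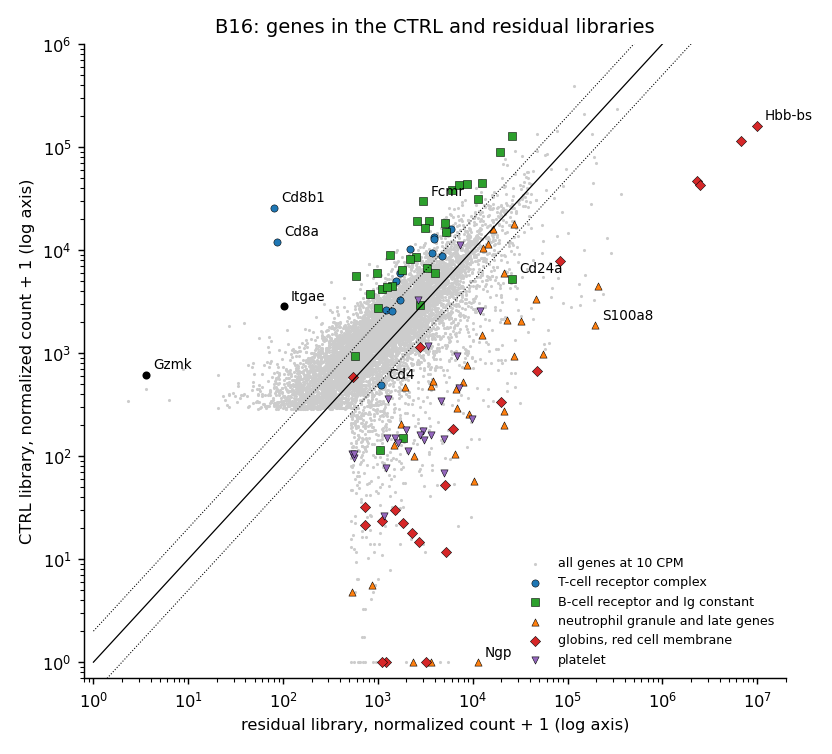
Normalized count + 1 of every gene at 10 CPM in the CTRL library (vertical, log axis) against the library labelled residual (horizontal, log axis), with 5 gene groups marked, the diagonal solid and 2-fold limits dotted. Cd8b1, Cd8a, Itgae and Gzmk lie far above the diagonal, most B-cell genes lie above it, and most globin, red cell, neutrophil and platelet genes lie below it; if libraries are scaled to total reads, points of genes well read in both libraries move up by 0.84 log2 units relative to the diagonal.

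T-cell receptor segments were read for how evenly each library used them. Trbv segments had 11513 reads in CTRL and 2008 in the residual-labelled library, and the effective number of segments, the inverse of the summed squared shares, was 15.3 in both. Trbv12-1 took 8.99% of the Trbv reads in CTRL (8.48 to 9.53, Wilson interval) and 1.79% in the residual-labelled library (1.30 to 2.47). Trbv16, the most used in CTRL, took 11.6% of the reads in CTRL and 6.62% in the residual-labelled library. Trbv1, the most used in the residual-labelled library, took 6.59% of the reads in CTRL and 11.8% in that library. The alpha segments were shallower, with 3167 reads in CTRL and 778 in the residual-labelled library, and an effective number of 38.1 in CTRL and 33.3 in the residual-labelled library. Near-identical segment copies share reads, so values of single segments are uncertain.

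B-cell genes were higher in CTRL as well, and by more than the CD3 genes. Of 24 B-cell receptor and coreceptor genes, all at the level, 19 were higher and 2 lower, with a median of 1.82. Cd79a had 43797 normalized counts in CTRL and 8791 in the residual-labelled library, and Cd79b, its partner, 38640 in CTRL and 6109.9 in the residual-labelled library. Ms4a1 (CD20) had 19255 in CTRL and 3435 in the residual-labelled library. A set of 4 B-cell genes that includes these 3 gave a median log2 ratio of 2.40 and serves as the B-cell yardstick. The balance within a library depended on the T-cell gene used. Per unit of Cd3e on the per-length scale it was close in the 2 libraries. Cd79a stood at 11.9 in CTRL and 11.4 in the residual-labelled library, and Ms4a1 at 1.23 in CTRL and 1.05 in the residual-labelled library. Cd3e had the highest log2 ratio of the CD3 yardstick genes (2.25), and Cd3d, Cd3g and Cd247 ranged from 1.33 to 1.78. The yardstick medians, 2.40 for B cells and 1.73 for T cells, were further apart.

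Several receptors of follicular B cells stood above this yardstick, and 2 surface proteins shared with early B cells and other blood cells stood far below it. Fcmr, a receptor for IgM, and Cr2, complement receptor 2, stood 0.90 and 0.86 above it. Fcer2a (CD23), a receptor of follicular B cells, had 19097 normalized counts in CTRL and 2552 in the residual-labelled library, 0.50 above it. Cd24a, a surface protein of immature B cells and of red cells and neutrophils, had 5271 normalized counts in CTRL and 25637 in the residual-labelled library and stood at -4.68. Cd93, known from early B cells, plasma cells and myeloid cells, had 149 reads in CTRL and 809 in the residual-labelled library and stood at -5.60. Among transcription factors, 10 of 21 were higher and 1 lower, with 0 under the level (median 0.98). Spib (2.82) and the octamer coactivator Pou2af1 (2.61) led, Pax5 (0.48) and Ebf1 (0.98), which fix B-cell identity, were not called, and Spi1, shared with myeloid cells, was lower (-1.02).

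**Figure D2:**
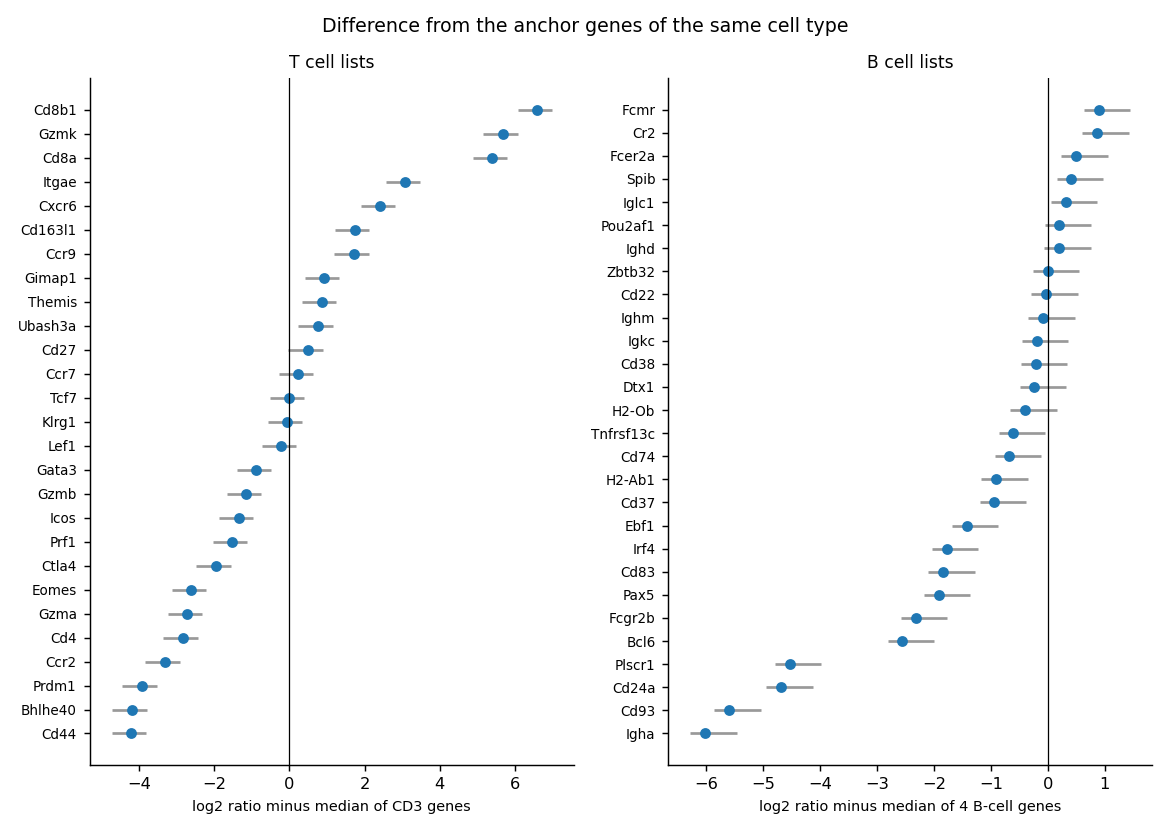
Log2 ratio (CTRL over residual) of single genes minus the median of Cd3d, Cd3e, Cd3g and Cd247 (left) or of the 4 B-cell yardstick genes (right); points use the median, and grey lines span the values with each of the 4 genes of a set alone. Cd8b1, Gzmk, Cd8a and Itgae lie to the right of the CD3 genes and Cd44 and Cd4 to the left, while Igha, Cd93 and Cd24a lie to the left of the B-cell genes.

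Immunoglobulin genes held 1.35% of the reads in CTRL and 0.151% in the residual-labelled library. Ighm, the IgM heavy chain, had 128870 normalized counts in CTRL and 25878 in the residual-labelled library (2.32), and Ighd, the IgD chain of naive B cells, 43230 in CTRL and 7113 in the residual-labelled library (2.60). Class-switched and secretory genes lay the other way: Igha, the IgA heavy chain, had 194 reads in CTRL and 1410 in the residual-labelled library. Per Ighm read, CTRL held 0.00115 Igha reads and the library labelled residual 0.0712. Jchain, which joins polymeric IgA and IgM, had 0 reads in CTRL and 336 in the residual-labelled library, at least 191-fold lower in CTRL against a floor of 3 reads per library. Ighg1 had 0 reads in CTRL and 25 in the residual-labelled library and Ighg2b 1 in CTRL and 53 in the residual-labelled library. The ratio of kappa to lambda constant reads was 2.54 in CTRL and 2.26 in the residual-labelled library. Of 11 plasma cell genes at the level, with 4 under it, 2 were higher and 2 lower: Sdc1 (CD138) was higher (1.60), Prdm1, a factor of plasma cells and T cells, was lower (-2.21), and Xbp1, the secretory factor, was not called (-0.58).

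Heavy variable segments were used less evenly in CTRL. Their effective number was 26.6 on 21711 reads in CTRL and 50.4 on 2162 reads in the residual-labelled library. Ighv1-81 alone took 11.8% of the Ighv reads in CTRL (11.4 to 12.2), against 1.34% in the residual-labelled library (0.936 to 1.92). Ighv1-64 held 1885 of the Ighv reads in CTRL and 54 in the residual-labelled library, whereas Ighv5-4 took 1.62% in CTRL and 5.55% in the residual-labelled library. Kappa segments had an effective number of 37.8 in CTRL and 46.6 in the residual-labelled library, with Igkv6-15 at 9.65% in CTRL and 3.80% in the residual-labelled library.

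Class II MHC genes were mostly higher in CTRL, and those at the level stood below the B-cell yardstick. Of 13 at the level, with 1 under it, 10 were higher and 0 lower, and the median was 1.69. Cd74, the invariant chain, was the gene with most reads in CTRL, 505671 against 89426 in the residual-labelled library. H2-Ob, a peptide-editing subunit typical of B cells, had 20925 normalized counts in CTRL and 5220.5 in the residual-labelled library, and H2-DMb2 was at 1.98. Ctss, the protease that trims the invariant chain and is shared with myeloid cells, was at -0.08. Class I genes had 9 of 18 higher and 0 lower (median 0.98). H2-Q7, a nonclassical class I gene, had 30391 normalized counts in CTRL and 8197 in the residual-labelled library (1.89), and the classical genes H2-K1 (0.87) and H2-D1 (0.46) were not called. Reads of these near-identical class I genes may be split between copies.

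Guanylate-binding and immunity-related GTPases were higher in CTRL, while most type I interferon-stimulated genes were not called and 12 were lower. Of 13 guanylate-binding and immunity-related GTPases at the level, with 1 under it, 12 were higher in CTRL and 0 lower, with a median of 1.45. Tgtp1 and Tgtp2, GTPases of the interferon gamma response, had 1648 and 3316 reads in CTRL against 120 and 282 in the residual-labelled library. Gbp6 had 853 reads in CTRL and 66 in the residual-labelled library (2.91) and Igtp, an immunity-related GTPase, 5060 in CTRL and 842 in the residual-labelled library (1.82). Of 32 type I interferon-stimulated genes at the level, with 3 under it, 2 were higher and 12 lower; their median was -0.50, and 0.35 under total scaling. Rsad2 (viperin) had 3835 reads in CTRL and 103294 in the residual-labelled library, and Isg15, the ubiquitin-like modifier, 668 in CTRL and 17756 in the residual-labelled library. Ifit1bl1, an Ifit family member, was at 2.73, while Ifit2 (0.61), Ifit3 (0.48) and Mx1 (-0.19) were not called. For each read of Isg15 and Rsad2, the Tgtp and Gbp genes had 6.46 reads in CTRL and 0.0477 in the residual-labelled library. Rsad2 (-5.52) was the lowest of the 32 type I genes and Isg15 was at -5.50, while 18 of the 32 were not called. The ratio therefore describes these 2 genes and not the type I list. Late neutrophil genes lay on the side of Rsad2, with summed levels of 45338 normalized counts in CTRL and 687012 in the residual-labelled library, and their part in these values was not tested.

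Neutrophil granule genes were lower in CTRL. Neutrophils fill azurophil granules first, then specific granules, then gelatinase granules as they mature. The 6 azurophil genes were nearly unread in CTRL, with 2 reads in all against 429 in the residual-labelled library, of which Prtn3 (proteinase 3) held 323. Of 13 specific granule genes at the level, with 2 under it, 11 were lower and 0 higher (median -4.54). Ngp had 0 reads in CTRL and 8646 in the residual-labelled library, Ltf (lactoferrin) 0 in CTRL and 2787 in the residual-labelled library, and Camp (cathelicidin) 0 in CTRL and 1806 in the residual-labelled library. Lcn2 (lipocalin 2) of the same granules was read in both, with 331 in CTRL and 6952 in the residual-labelled library, and Ly6g, the marker used to sort neutrophils, had 6 in CTRL and 664 in the residual-labelled library.

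Late neutrophil genes had 18 of 20 lower and 0 higher, with 3 under the level and a median of -3.91. S100a8, the calprotectin subunit, had 1862 normalized counts in CTRL and 193472 in the residual-labelled library, and Il1r2, the decoy receptor of interleukin 1, 260 reads in CTRL and 16341 in the residual-labelled library. Their ratios were spread: Mmp9, the gelatinase, was at -3.05, Csf3r, the G-CSF receptor, at -3.44, Retnlg at -5.80 and Wfdc21 at -7.48. Relative to the neutrophil yardstick (Csf3r, S100a8, S100a9 and Cxcr2, median -4.71), Mmp9 stood at 1.66 and Wfdc21 at -2.77. NADPH oxidase subunits, which sit in the specific granule membrane and which monocytes and B cells also express, were not called, with Cybb at -0.33 and Cyba at -0.62.

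Inflammatory mediators were lower with the neutrophil genes. In the interleukin 1 system 7 of 10 were lower and 0 higher, with 5 under the level (median -2.86). Il1b had 3383 normalized counts in CTRL and 46931 in the residual-labelled library, Nlrp3, the inflammasome sensor, 412 reads in CTRL and 4584 in the residual-labelled library, and Acod1, which makes itaconate, 120 reads in CTRL and 4367 in the residual-labelled library. Casp1, the enzyme that cleaves interleukin 1 beta, was at 0.27 and not called. Of 11 chemokine genes at the level, with 8 under it, 10 were lower and 0 higher (median -3.97). Cxcl2, a neutrophil attractant, had 360 reads in CTRL and 16449 in the residual-labelled library and Ccl4, a macrophage inflammatory protein, 473 in CTRL and 6774 in the residual-labelled library. Ccl5, the chemokine stored by T and NK cells, was the exception at -0.01.

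Monocyte genes were divided by subset. Classical monocyte genes had 8 of 15 lower and 1 higher, with a median of -1.51. Cd14, the endotoxin coreceptor, had 902 reads in CTRL and 14027 in the residual-labelled library, and Vcan (versican) 7 in CTRL and 764 in the residual-labelled library. Csf1r, the receptor that monocytes depend on, was at -0.22 and Ly6c2 at -0.25, neither called. Nonclassical monocyte and macrophage genes had 3 of 15 higher and 3 lower, with 5 under the level and a median of -0.15 that turns positive under total scaling. Cd300e (1.95) and Fcgr4 (1.07), receptors of nonclassical monocytes, were higher, and Cd36, a scavenger receptor, was lower at -1.45.

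Basophil genes gave wide falls on modest reads: 6 of 6 at the level were lower (median -5.19), and 7 of 13 were under the level. Mcpt8, a basophil protease, had 0 reads in CTRL and 734 in the residual-labelled library, Prss34 6 in CTRL and 707 in the residual-labelled library, and Fcer1a, the IgE receptor chain, 1 in CTRL and 252 in the residual-labelled library. Hdc, which makes histamine in basophils and neutrophils, had 1128 in CTRL and 15183 in the residual-labelled library. Platelet genes were also lower. Among adhesion receptors 10 of 10 at the level were lower, with 5 under it (median -3.11), with Itga2b (the alpha chain of the fibrinogen receptor) at 1209 reads in CTRL and 5182 in the residual-labelled library and Gp1bb, of the von Willebrand factor receptor, at 88 in CTRL and 3805 in the residual-labelled library. Among granule and cytoskeleton genes 13 of 15 were lower and 0 higher, with 5 under the level (median -3.97), with Pf4 (platelet factor 4) at 296 reads in CTRL and 7430 in the residual-labelled library. Gp1ba, the partner of Gp1bb, had 178 reads in CTRL and 165 in the residual-labelled library, under the level.

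**Figure D3:**
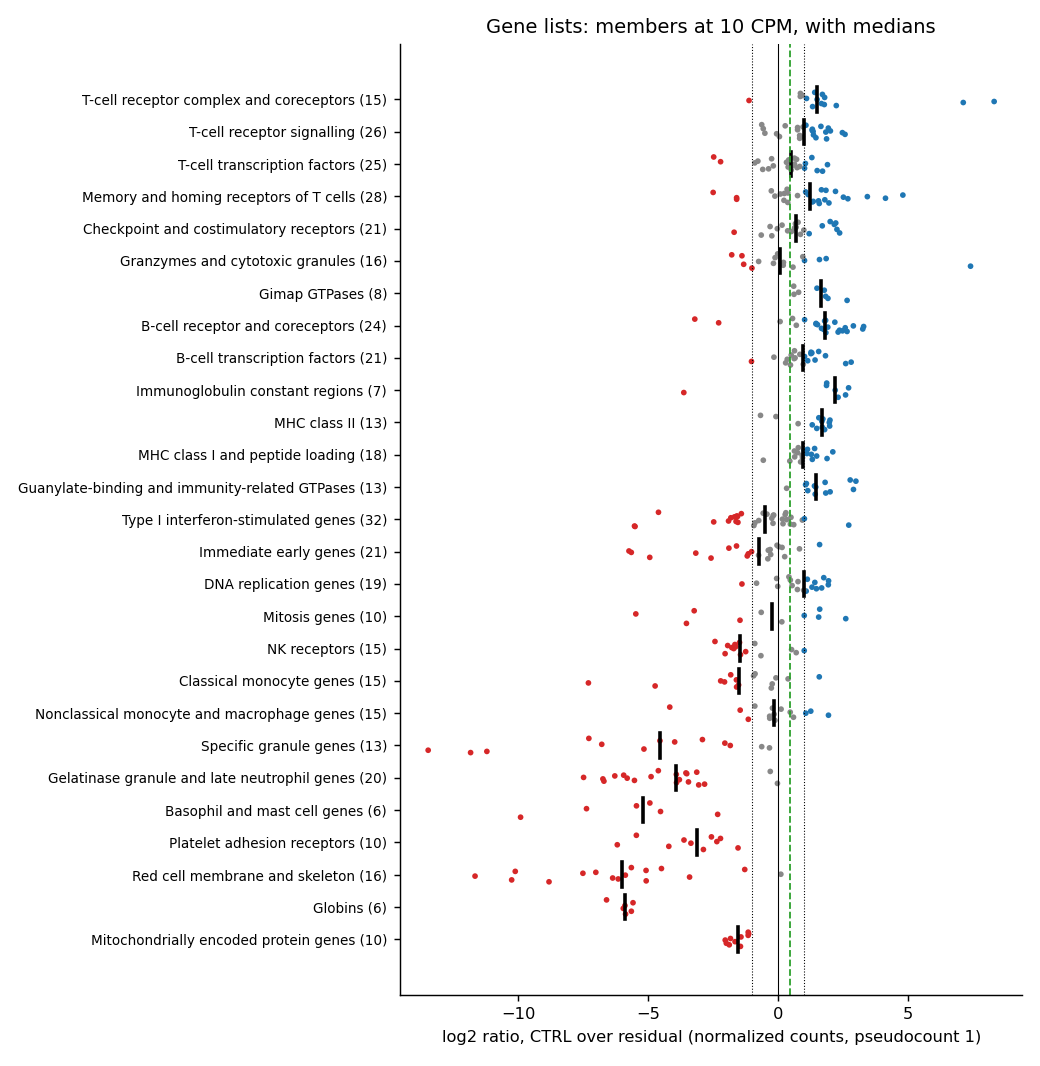
Log2 ratio (CTRL over residual, normalized counts with 1 added) of every member at 10 CPM in 27 of the 66 gene lists, with the number of such members in brackets; thick bars are medians, the dashed line is the median of all genes (0.47), and dotted lines mark 1 in size; genes with 0 reads in CTRL are placed by the added 1. Lymphocyte lists lie mostly to the right and granule, basophil, platelet and red cell lists to the left; scaling to total reads moves points of genes well read in both libraries by 0.84 to the right, and those with few or no reads in CTRL by less, which turns the medians of the type I interferon, immediate early, mitosis and nonclassical monocyte lists positive.

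Globin genes took 1.28% of all reads in CTRL, against 42.0% in the residual-labelled library. Hbb-bs, an adult beta globin gene (chromosome 7, 103826534 to 103828096 on mm10), had 209361 reads in CTRL and 7602423 in the residual-labelled library, where it made up 19.5% of all reads. Hbb-bt, the second adult beta gene, had 55303 reads in CTRL and 1920913 in the residual-labelled library, Hba-a1 149648 in CTRL and 5113059 in the residual-labelled library, and Hba-a2 60488 in CTRL and 1771040 in the residual-labelled library. The 4 genes fell together, with log2 ratios from -5.95 to -5.64. The balance between chains was close in the 2 libraries: 1.26 beta reads per alpha read in CTRL and 1.38 in the residual-labelled library, and 3.79 Hbb-bs reads per Hbb-bt read in CTRL against 3.96 in the residual-labelled library. Hba-a1 and Hba-a2 code for nearly the same protein, so reads may be split between them. Embryonic globins were almost unread, Hbb-y with 1 reads in CTRL and 87 in the residual-labelled library and Hba-x with 0 in CTRL and 13 in the residual-labelled library.

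The 250 bases before the start of these genes by the RefSeq annotation are shown because they are the proximal promoters of the transcripts that fill the library labelled residual, with Cd8a, a coreceptor gene that is high in CTRL, beside them. Sequences are from RefSeq on GRCm38.p6, 5′ to 3′ on the strand of the gene, and capitals mark GATAAG, CCACACCC or CCAAT found on either strand; no 2 of the marked matches overlap. Hbb-bs lies on the minus strand at chr7:103827929-103828178, Hbb-bt on the minus strand at chr7:103813924-103814173, Hba-a1 on the plus strand at chr11:32283422-32283671, and Cd8a on the plus strand at chr6:71373177-71373426.
Hbb-bs: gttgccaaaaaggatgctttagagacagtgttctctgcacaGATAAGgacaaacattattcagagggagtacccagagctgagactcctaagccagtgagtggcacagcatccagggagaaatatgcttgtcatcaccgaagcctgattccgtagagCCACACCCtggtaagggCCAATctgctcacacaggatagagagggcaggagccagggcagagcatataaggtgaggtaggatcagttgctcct
Hbb-bt: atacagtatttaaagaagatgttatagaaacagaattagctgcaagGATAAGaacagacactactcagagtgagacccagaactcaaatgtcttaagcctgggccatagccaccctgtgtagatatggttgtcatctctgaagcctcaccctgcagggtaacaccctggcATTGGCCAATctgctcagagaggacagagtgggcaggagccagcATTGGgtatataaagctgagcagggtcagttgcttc
Hba-a1: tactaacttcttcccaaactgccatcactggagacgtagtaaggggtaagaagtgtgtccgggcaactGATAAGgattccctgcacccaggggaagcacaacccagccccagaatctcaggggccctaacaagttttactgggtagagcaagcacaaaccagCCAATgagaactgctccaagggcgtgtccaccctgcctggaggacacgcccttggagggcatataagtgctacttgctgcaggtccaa
Cd8a: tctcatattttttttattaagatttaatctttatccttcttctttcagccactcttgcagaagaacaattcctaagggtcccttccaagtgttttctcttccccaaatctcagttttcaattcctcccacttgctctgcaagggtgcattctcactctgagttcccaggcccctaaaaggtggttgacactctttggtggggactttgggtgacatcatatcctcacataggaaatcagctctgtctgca

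In Hbb-bs the matches began 209 bases (GATAAG), 93 bases (CCACACCC) and 76 bases (CCAAT) before the start. Hbb-bt had GATAAG at 204 and CCAAT on either strand at 80, 75 and 36, with no CCACACCC in the window. Hba-a1 had GATAAG at 182 and CCAAT at 88, and its window shared a run of 247 bases with that of Hba-a2. The Cd8a window held none of the 3 motifs. These motifs are letters known from erythroid promoters, GATAAG as the core bound by GATA1, CCACACCC as that bound by KLF1, and CCAAT as a general promoter box; a match here is a description of the window and not a bound site. GATAAG was present in 6.55% of 32841 windows of all genes, 4.39% of 7205 windows of genes at the level, 13.1% of 160 windows of genes lower by 16-fold or more, and 5.75% of 261 windows of genes higher by 4-fold or more. CCACACCC was present in 3.20% of all windows, 3.51% of those at the level, 12 of the 160 lower and 3.45% of the higher, and CCAAT in 33.9%, 36.7%, 36.9% and 38.3% of the same sets. Those lower and higher sets have unlike limits. With the call limit in both directions, GATAAG was present in 5.63% of 782 windows of genes called lower and 4.07% of 1894 called higher. For CCACACCC these shares were 4.09% lower and 3.59% higher, and for CCAAT 35.4% and 37.1%.

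The globin reads had a neighbourhood. Hbb-bs lies on the minus strand, so lower coordinates are on its 3′ side, and the olfactory receptor genes there carried reads that fell off with distance in the residual-labelled library. Olfr67, 34.7 kb from Hbb-bs, had 41 reads in CTRL and 1415 in the residual-labelled library. Olfr68, at 46.8 kb, had 3 in CTRL and 533 in the residual-labelled library, Olfr69, at 54.9 kb, 5 in CTRL and 440 in the residual-labelled library, Olfr630, at 69.2 kb, 1 in CTRL and 128 in the residual-labelled library, and Olfr629, at 81.6 kb, 1 in CTRL and 54 in the residual-labelled library. On the other side, beyond Hbb-y, Olfr66 at 51.3 kb had 0 reads in CTRL and 3 in the residual-labelled library and Olfr64 at 61.4 kb 11 in CTRL and 11 in the residual-labelled library. Around the alpha genes of chromosome 11 2 nearby genes with other roles were higher in CTRL: Il9r, an interleukin receptor gene, had 1551 reads in CTRL and 170 in the residual-labelled library (2.41), and Rhbdf1 752 in CTRL and 126 in the residual-labelled library (1.80). Nprl3, whose introns carry the alpha globin enhancers, was at 0.88 and not called.

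**Figure D4:**
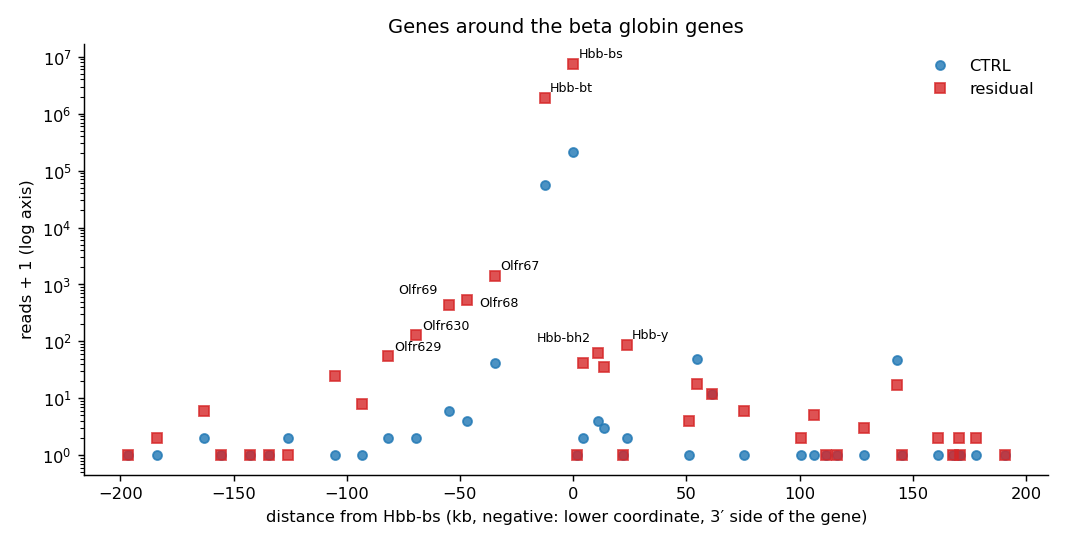
Reads + 1 (log axis) of each gene within 200 kb of Hbb-bs in CTRL (circles) and the library labelled residual (squares), by distance in kb, where negative values lie at lower coordinates, on the 3′ side. Reads of the library labelled residual step down from 1415 in Olfr67 to 54 in Olfr629 on the 3′ side, while genes beyond Hbb-y on the 5′ side have 17 or fewer.

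Red cell membrane and skeleton genes were lower too: of 16 at the level, with 4 under it, 15 were lower and 0 higher, and the median was -6.01. Slc4a1, the anion exchanger band 3, had 869 reads in CTRL and 36157 in the residual-labelled library. Ank1 (ankyrin), Add2 (beta adducin) and Kel, the Kell antigen, had 0 reads in CTRL against 931, 2475 and 846 in the residual-labelled library, which puts Ank1 at least 529-fold, Add2 at least 1407-fold and Kel at least 481-fold lower in CTRL. The Rh complex genes Rhag (18 reads in CTRL and 2058 in the residual-labelled library) and Rhd (22 in CTRL and 1760 in the residual-labelled library) followed.

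Haem enzymes were lower by unequal factors. Of 19 haem and iron genes at the level, with 1 under it, 11 were lower and 1 higher (median -2.03). Alas2, the erythroid first step of haem synthesis, had 17062 reads in CTRL and 201103 in the residual-labelled library (-4.33), and Fech, the last step, 7030 in CTRL and 60193 in the residual-labelled library (-3.87). Urod (-3.29) and Alad (-2.29), cytosolic steps between them, were lower by less, and Uros (0.97), Cpox (-0.88) and Ppox (0.05) were not called. Slc11a2, the iron transporter DMT1, was higher at 1.55. Maturation genes had 19 of 22 lower and 0 higher, with 7 under the level (median -3.40). Bpgm, which makes 2,3-bisphosphoglycerate, had 7546 reads in CTRL and 117511 in the residual-labelled library, and Ube2o, which clears proteins from reticulocytes, 2782 in CTRL and 32852 in the residual-labelled library. Gpx1, a peroxidase gene, had 46160 reads in CTRL and 276919 in the residual-labelled library, where only the 4 adult globin genes had more. Of the erythroid factors, Nfe2 was lower (-1.97), Lmo2 (0.19), Ldb1 (0.42) and Zfpm1 (0.72) were not called, and others were under the level: Gata1 had 134 reads in CTRL and 143 in the residual-labelled library, Klf1 19 in CTRL and 101 in the residual-labelled library, and Tal1 0 in CTRL and 114 in the residual-labelled library.

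Mitochondrially encoded genes at the level, 12 of 37, were called lower without exception. The 10 protein genes lay close together, from -1.13 for mt-Cytb to -2.03 for mt-Nd6. Their median was -1.55, and -0.70 under total scaling, which is short of the call limit. The ribosomal RNA genes lay further out: mt-Rnr2 had 12235 reads in CTRL and 221379 in the residual-labelled library, and mt-Rnr1 827 in CTRL and 21329 in the residual-labelled library. Within a library, mitochondrial rRNA reads per mitochondrial protein gene read were 0.372 in CTRL and 3.88 in the residual-labelled library. Nuclear rRNA showed the same gap, with CT010467.1 at 4872 reads in CTRL and 182063 in the residual-labelled library and rRNA genes at 0.0139% of reads in CTRL and 0.467% in the residual-labelled library. Cytosolic ribosomal protein genes had 1 of 82 higher and 11 lower, with 7 under the level and a median of -0.11 that is 0.73 under total scaling. Nuclear respiratory chain genes had 1 of 30 higher and 10 lower, with a median of -0.46 and 0.38 under total scaling. Their spread ran from Sdha, the flavoprotein of complex II (1.15), to the small complex III subunit Uqcrh (-1.98).

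Genes of DNA synthesis were more often higher than lower in CTRL, and genes of mitosis were called as often in either direction. Of 19 replication genes at the level, with 7 under it, 9 were higher and 1 lower (median 0.99). Mcm6, a subunit of the replicative helicase, had 6156 reads in CTRL and 1123 in the residual-labelled library, and Rrm1, the large subunit of ribonucleotide reductase, 1776 in CTRL and 271 in the residual-labelled library. Rrm2, the small subunit of the same enzyme, was lower at -1.39. Of 10 mitosis genes at the level, with 16 under it, 4 were higher and 4 lower, with a median of -0.25 that turns positive under total scaling. Cdc20, an activator of the anaphase-promoting complex, had 809 reads in CTRL and 77 in the residual-labelled library (2.61), and Cdk1, the mitotic kinase, 182 in CTRL and 13 in the residual-labelled library, under the level. Ube2c, which works with that complex, had 280 reads in CTRL and 7311 in the residual-labelled library, Mki67 296 in CTRL and 2001 in the residual-labelled library, and Nusap1, a spindle protein, 390 in CTRL and 2142 in the residual-labelled library. Red cell genes lay on the side of Ube2c (15 of 16 membrane genes lower), and their part in these values was not tested.

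In the BCL2 family of survival genes, 2 members lay on opposite sides. Bcl2 had 14615 normalized counts in CTRL and 4234 in the residual-labelled library, whereas its relative Bcl2l1 (BCL-XL) had 851 in CTRL and 18648 in the residual-labelled library. Bcl2 reads per Bcl2l1 read were 17.2 in CTRL (16.2 to 18.3) and 0.227 in the residual-labelled library (0.219 to 0.236). Red cell genes lay on the side of Bcl2l1 (15 of 16 membrane genes lower), and their part in its value was not tested. Mcl1 (-0.55) and Bax (0.05) were not called. Over the family 2 of 14 were higher and 3 lower, with 6 under the level and a median of 0.03 that is -0.03 with TMM factors.

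Immediate early genes, which rise within minutes of stimulation, had 1 of 21 higher and 10 lower, with 3 under the level and a median of -0.75 and 0.10 under total scaling. Nr4a3 had 14 reads in CTRL and 448 in the residual-labelled library, Ier3 123 in CTRL and 3878 in the residual-labelled library, and Fosl2 233 in CTRL and 4197 in the residual-labelled library. Fos (-0.39), Jun (0.26) and Egr1 (-0.28) were not called, and Myc was higher at 1.60. NF-kB targets spanned from Lta (lymphotoxin alpha, 1.97) and Ltb (1.51), both higher, to Nfkbia (-2.47) and Tnf (106 reads in CTRL and 2821 in the residual-labelled library), both lower. Calprotectin's relatives in the S100, annexin and galectin list had 10 of 19 lower and 1 higher, with 1 under the level (median -1.13), with S100a6 at -2.78, Anxa1 at -3.24 and Anxa6 higher at 1.48.

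Nutrient transporters held extremes on either side. Of 13 amino acid transporter genes at the level, Ggt1 included, with 4 under it, 2 were higher, 5 lower and 6 not called. Their median was -0.29, and 0.55 under total scaling. Ggt1, the gamma-glutamyl transferase that breaks down extracellular glutathione, had 2201 reads in CTRL and 83 in the residual-labelled library (3.95), and Slc1a5, a glutamine transporter, 19863 in CTRL and 4405 in the residual-labelled library (1.40). Slc7a11, the cystine transporter, had 154 reads in CTRL and 2805 in the residual-labelled library (-4.95) and Slc38a5, a glutamine transporter of red cell precursors, 66 in CTRL and 2322 in the residual-labelled library (-5.88). Glycolysis and glucose uptake genes mostly stayed within the limit. Of 21 at the level, with 2 under it, 15 were not called, 5 were lower and 1 higher. Their median was -0.11, and 0.74 under total scaling. Hk2 (-2.37) and Hk3 (-2.74), hexokinases, and Slc16a3, the lactate exporter (-2.61), were lower, while the lactate and pyruvate transporter Slc16a1 was higher (1.25).

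Among called genes whose mean normalized count reached 1072, the median of all called genes, the largest rises outside these lists, after the coreceptors and Itgae, were Wdr6 at 3.34, the trafficking adaptor Gga2 at 3.20, the receptor Adgrg5 at 3.08 and Tdrp at 2.97. Gga2 had 7358 normalized counts in CTRL and 802 in the residual-labelled library. Ranks below them held Usp11, a deubiquitinase (2.91), Trim34a (2.90), Rubcn, a regulator of autophagy (2.88), Cnp (2.81), Ephx1, an epoxide hydrolase (2.80), and Sbk1 (2.76). The largest falls outside the lists were Ctsf (cathepsin F), with 0 reads in CTRL and 4212 in the residual-labelled library, Rhov, a small GTPase, with 0 in CTRL and 3467 in the residual-labelled library, Cox6b2 with 26 in CTRL and 5404 in the residual-labelled library, and Gstm5 with 14 in CTRL and 2424 in the residual-labelled library. Further falls were Dmxl2 (-6.43), Tmcc2 (-6.32), Cd33, a sialic acid receptor of myeloid cells (-6.32), and Specc1 (-6.14).

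The libraries differed at their low end, where reads thin out. CTRL had reads in 24575 genes and the library labelled residual in 36955, although CTRL had more genes with at least 1000 reads, 6641 against 4162. Genes with 1 to 9 reads numbered 7188 in CTRL and 16985 in the residual-labelled library. Genes with at least 10 reads in a library and 0 in the other numbered 217 for CTRL and 2420 for the library labelled residual, and at 100 reads they numbered 2 for CTRL and 69 for the residual-labelled library. The top 10 genes of each library took 6.08% of the reads in CTRL and 45.3% in the residual-labelled library.

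Low reads tracked the length of genes. Among protein-coding genes under 1 CPM in both libraries and shorter than 1000 exonic bases, 15.3% had a read in CTRL and 43.5% in the residual-labelled library. Among those of 8000 bases or more the shares were 58.8% in CTRL and 97.1% in the residual-labelled library, with medians of 1 read in CTRL and 18 reads in the residual-labelled library. Families best known from sensory and epithelial tissue showed the same gap. Olfactory receptor genes (Olfr names), leaving out the beta globin region, had reads in 201 of 1113 in CTRL and 880 of 1113 in the residual-labelled library, on 1455 reads in CTRL and 5451 in the residual-labelled library. Vomeronasal receptor genes had reads in 50 of 330 in CTRL and 226 of 330 in the residual-labelled library. Keratin genes had reads in 8 of 53 in CTRL and 49 of 53 in the residual-labelled library, though their read sums were close at 2135 in CTRL and 2237 in the residual-labelled library. Ratios of genes with few reads in the residual-labelled library rest on this floor, and its source was not tested.

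**Figure D5:**
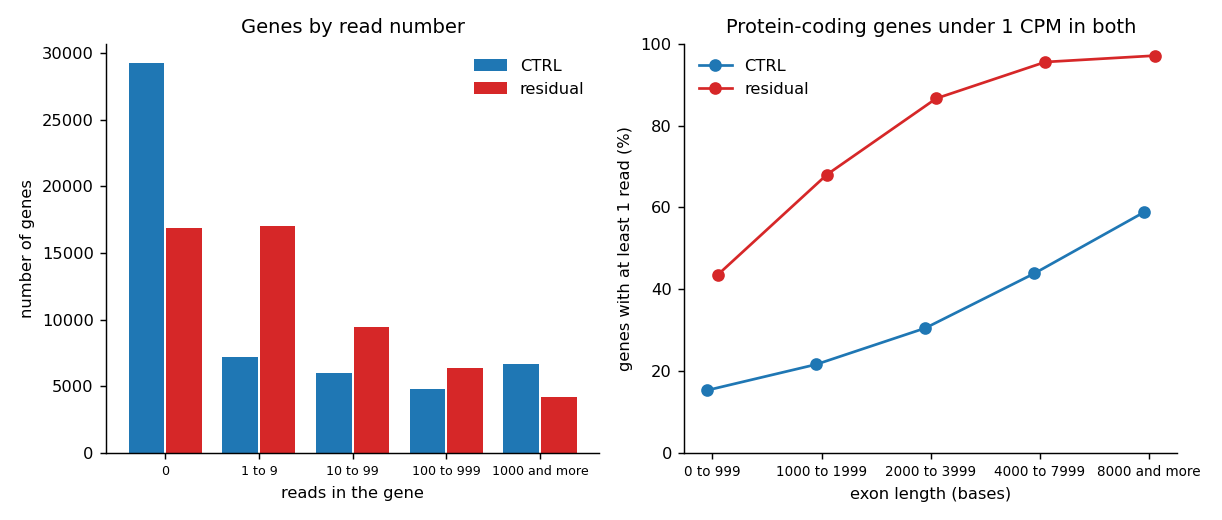
Left, number of genes by read number in CTRL (blue) and the library labelled residual (red); right, percent of protein-coding genes under 1 CPM in both libraries with at least 1 read, by exon length in bases. The library labelled residual has 16985 genes of 1 to 9 reads against 7188 in CTRL, and its share of genes with a read goes from 43.5% to 97.1% with length, above CTRL in each class.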

How the data were processed

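RNA-seq counts and normalized counts of the B16 pair were read from the deposited table, 1 library a group. The authors deposited whole-number read counts per gene, not normalized, and a normalized signal, which equals those counts divided by median-of-ratios size factors (recomputed here with a largest relative deviation of 4.4e-16). STAR 2.7.3a, HTSeq 0.11.2 and DESeq2 are listed with the mm10 build in the submitters' processing notes; their roles, the annotation and the strand of counting are not given in the sources used here. The fold and p columns were not used.

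From these values the log2 ratio with a pseudocount of 1, counting intervals of 95%, CPM and RPKM were computed with Python 3.11.15, numpy 2.4.6, scipy 1.17.1 and pandas 2.3.3, and figures were drawn with matplotlib 3.10.9. Positions and exon lengths came from GENCODE M21, which held 53706 of 53801 IDs (99.8%), and promoters from RefSeq on GRCm38.p6. Alternatives were total scaling, TMM factors (edgeR 4.0.16 in R 4.3.3), scaling without haemoglobin, pseudocounts of 0.1 and 5, levels of 1 and 50 CPM or none, and a limit of 4-fold. The ratio, its intervals and the calls were tested on simulated data with counting error only. Both simulated libraries had the same mean levels apart from a small set of changed genes. That setting lacks the unlike composition of the real libraries, so it cannot check how well the scaling or the calls hold for this pair. Near-identical and overlapping genes may share reads.

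Intervals and the floor of 3 reads per library cover counting error only. Setting genes at 0 to that floor changed no list median. The 66 lists and the members were chosen with earlier results of these data known. Named genes were taken from the 25 largest ratios in each direction above the median level of called genes, the 5 members with most CPM and the 3 largest called ratios of each list, all members of lists of 12 or fewer, and 10 marker genes; other named genes were chosen after their values were seen. Some genes, 1 of them in the B-cell yardstick, are not reported here. The other 2 samples of the series were not analysed here.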

Additional observations from a re-analysis of the deposited data

How the results depend on the processing

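The calls of 2485 genes higher and 1088 lower in CTRL stayed within 1.5 times under TMM factors, scaling without haemoglobin (with or without immunoglobulin and mitochondrial genes), and either pseudocount. Scaling to total reads gave 5911 higher and 597 lower. A level of 1 CPM gave 2770 lower, a level of 50 CPM gave 1231 higher and 553 lower, and no level limit gave 5643 higher and 20338 lower. A limit of 4-fold gave 409 higher and 551 lower. The direction changed for 4 differences from a yardstick: Retnlg stood 0.90 and Cxcl2 0.42 above S100a8 alone, against -1.09 and -1.57 from the median of the neutrophil genes, and Ube2l6 stood at -0.50 and Bpgm at -0.40 from Alas2 alone, against 1.18 and 1.28 from the median of the red cell genes. Each of these 4 genes lay between that single gene and the median of its set. The neutrophil yardstick genes ranged from -6.70 to -3.44 and the red cell ones from -6.36 to -4.33. Small differences from these 2 medians therefore depend on the gene chosen. No paired analysis was possible because each group holds 1 library and no result comes from a test.

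With 1 library a group there is no spread between samples. Counting intervals are narrow for well read genes and wide for Cd8a and Gzmk in the library labelled residual, with 65 and 2 reads. A gene under 372 reads in CTRL and 391 in the library labelled residual was under the level.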

Other observations

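Ion channels of lymphocytes had 6 of 16 at the level higher in CTRL and 0 lower, with a median log2 ratio of 0.80. Toll-like receptors had 2 of 10 higher and 4 lower, with a median of -0.26 that turns positive under total scaling. Fc receptors had 4 of 9 higher and 3 lower. Proteasome genes had 0 of 20 higher and 1 lower, with a median of 0.16, against 0.47 for all genes at the level. Dendritic cell genes had 3 of 8 higher and 0 lower, with 9 under the level.

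Genes of melanocytes and melanoma were mostly little read in both libraries, with 11 of 12 under the level; Pmel, a melanosome protein gene, was the one at it, with a log2 ratio of 0.36.

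Reads went to chromosomes unevenly: chromosome 7, which holds the beta globin genes, took 8.61% of reads in CTRL and 28.8% in the library labelled residual. MicroRNA genes took 0.0168% of reads in CTRL and 0.187% in the library labelled residual.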
